A study of Mus musculus with 6 samples.

Results

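H3K27me3 was compared between neural stem and progenitor cells kept with water and cells kept with crotonate, using the peak lists of the 2 H3K27me3 libraries among the 6 samples of the series. The water list holds 7643 peaks and the crotonate list 15879, and every peak of both lists was used. The cells were taken from E13.5 mouse forebrain, expanded in culture with epidermal and fibroblast growth factors, and given water (the control) or 10 mM crotonate for 24 h at passage 2 or 3. Crotonate is the salt of a short unsaturated fatty acid that cells turn into crotonyl-CoA, the donor for histone crotonylation. All cells of both groups shared the growth factors and the B27 and N2 supplements, and genotype, strain and any pooling of embryos are not stated in the labels. The method was CUT&Tag: an antibody guides a transposase that cuts and tags DNA next to the marked nucleosomes. The IgG samples and the other histone mark of the series were not analysed here. There was 1 library per treatment, so no difference below has a replicate check, no p-value is given, and intervals are exact (Clopper-Pearson) 95% binomial intervals that cover counting error only.

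H3K27me3 is placed by Polycomb repressive complex 2, whose catalytic subunit is EZH2 or EZH1, and is read by Polycomb repressive complex 1. The complex is recruited to CpG islands and the mark spreads from there, so developmental regulator genes that a cell does not use lie under broad domains, while genes used only in other tissues can carry short ones. In neural progenitors such domains are known over the Hox clusters and over regulators of other regions and germ layers.

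Promoter sequences are shown for 6 genes whose annotated start lay inside a peak of both lists, of the crotonate list only, or of the water list only, because the lists differed in the CpG content of the starts they hold. Each is the 250 bases before the start, 5′ to 3′ along the gene, from the RefSeq promoter table of GRCm38.p6, with every CG in capitals. CG reads the same on both strands.
Otp promoter, chr13:94875386-94875635, plus strand: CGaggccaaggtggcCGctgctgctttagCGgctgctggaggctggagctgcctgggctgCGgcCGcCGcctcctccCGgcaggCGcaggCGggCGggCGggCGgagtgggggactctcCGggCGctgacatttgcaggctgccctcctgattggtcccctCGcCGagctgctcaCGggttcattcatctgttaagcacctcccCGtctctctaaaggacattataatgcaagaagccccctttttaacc
Gata5 promoter, chr2:180334680-180334929, minus strand: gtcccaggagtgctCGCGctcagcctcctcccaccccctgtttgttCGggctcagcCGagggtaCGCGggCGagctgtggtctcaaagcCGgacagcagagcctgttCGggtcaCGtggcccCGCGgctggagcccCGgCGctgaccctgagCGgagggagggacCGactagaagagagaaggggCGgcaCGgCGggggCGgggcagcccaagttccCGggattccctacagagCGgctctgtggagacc
Tnf promoter, chr17:35202008-35202257, minus strand: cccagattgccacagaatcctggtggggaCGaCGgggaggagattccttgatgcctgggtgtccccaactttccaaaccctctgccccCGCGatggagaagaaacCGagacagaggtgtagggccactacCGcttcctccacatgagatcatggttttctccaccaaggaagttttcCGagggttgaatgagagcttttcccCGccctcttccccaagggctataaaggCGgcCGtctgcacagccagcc
Rnf224 promoter, chr2:25236788-25237037, minus strand: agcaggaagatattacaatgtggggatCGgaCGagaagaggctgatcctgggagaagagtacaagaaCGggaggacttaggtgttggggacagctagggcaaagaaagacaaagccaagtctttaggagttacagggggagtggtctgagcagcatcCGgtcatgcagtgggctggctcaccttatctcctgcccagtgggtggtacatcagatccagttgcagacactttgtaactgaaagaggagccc
Trim47 promoter, chr11:116110236-116110485, minus strand: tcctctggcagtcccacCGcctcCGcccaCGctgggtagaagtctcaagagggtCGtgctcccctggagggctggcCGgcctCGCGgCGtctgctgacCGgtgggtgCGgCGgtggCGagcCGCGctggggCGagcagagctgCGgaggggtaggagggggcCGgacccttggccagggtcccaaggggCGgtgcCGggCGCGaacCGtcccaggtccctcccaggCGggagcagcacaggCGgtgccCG
Zfp296 promoter, chr7:19577037-19577286, plus strand: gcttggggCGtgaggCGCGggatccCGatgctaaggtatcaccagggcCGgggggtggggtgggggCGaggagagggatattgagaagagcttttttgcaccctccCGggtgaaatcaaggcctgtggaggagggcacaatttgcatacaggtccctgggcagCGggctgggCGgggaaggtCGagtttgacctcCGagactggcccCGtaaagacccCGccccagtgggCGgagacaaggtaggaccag
The starts of Otp and Gata5 lay inside peaks of both lists, and these promoters hold 18 and 22 CG. The starts of Tnf and Rnf224 lay inside a peak after crotonate only, with 10 and 4 CG. The starts of Trim47 and Zfp296 lay inside a peak after water only, with 25 and 14 CG. The 6 were chosen after their values were seen. Over all 21263 promoters of 17492 genes in the table, 93.4% held at least 1 CG, the median was 10 and 50.1% held 10 or more. The 1080 promoters with a start in both lists had a median of 14, and 66.9% of them held 10 or more (64.0 to 69.7%). The 314 with a start in a crotonate peak only had a median of 9, and 47.8% held 10 or more (42.1 to 53.5%), next to 49.1% of the 19780 that lay in neither list. The 89 with a start in a water peak only had a median of 16, and 73.0% held 10 or more (62.6 to 81.9%). The starts that were inside a peak only after crotonate were thus close in CpG content to unmarked starts, and those inside a peak in both lists were richer.

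Genes that the labelled cells use, and that should lack the mark, were looked up. Of 12 neural stem and progenitor markers, 10 had no peak anywhere in their span in either list, namely Sox2, Nes, Pax6, Vim, Hes1, Hes5, Fabp7, Slc1a3, Notch1 and Sox9. Any part of the span was covered for 10.2% of all 21887 protein-coding genes after water and 13.6% after crotonate. Most genes thus had no peak, and this count does not identify the cells. Prom1 had a peak at its start in both lists, over 1.19% of its span after water and 1.08% after crotonate, and Msi1 had 0.693% of its span under a peak after crotonate. H3K27me3 lists cannot count other cell types, and their part in the results was not tested. Of markers of other cells, those that rose by at least 10 percentage points are named, and each was the only one of its type. They were 1 of 5 markers of microglia, 1 of 4 of vessels, 1 of 6 of the oligodendrocyte lineage and 1 of 4 of fibroblasts, beside 2.79% of all genes. No marker of neurons or astrocytes rose by as much, and none of any type fell by as much. Tmem119 of microglia was covered over 0 and 45.5% of its span after water and crotonate, and Cldn5 of endothelium over 0 and 51.1%. Sox10 of the oligodendrocyte lineage was covered over 0 and 13.6%, and Pdgfrb of pericytes and fibroblasts over 1.19 and 15.5%. With lists of equal length, in which the crotonate list was reduced to its 7643 peaks of highest significance, the crotonate shares were 36.6% at Tmem119, 0% at Cldn5, 0% at Sox10 and 6.27% at Pdgfrb. In all, 11 of 32 markers of other cells had a peak in at least 1 list, and 21 had none in either. Of the 32, 6 had a peak after water and 11 after crotonate, beside 10.2 and 13.6% of all genes. Gfap, the astrocyte filament gene, was among the 21.

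The first comparison asked how long the domains were in each list. Short peaks made up most of the added number, and every length class held more peaks after crotonate. Peaks under 0.5 kb numbered 1310 after water and 3864 after crotonate, a ratio of 2.95. The ratio was smaller for longer classes, with 2.31 at 0.5 to 1 kb (2274 and 5242 peaks), 1.96 at 1 to 2 kb (1604 and 3143), 1.54 at 2 to 5 kb (1433 and 2206) and 1.42 at 5 to 10 kb (624 and 887). It was 1.31 at 10 to 20 kb (279 and 365) and 1.45 for domains of 20 kb or more (119 and 172), so the order did not hold at the longest class. The median peak measured 1087 bp in the water list, against 828 bp in the crotonate list.

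Length covered was spread otherwise than peak number. Peaks under 1 kb were 46.9% of the water list and 57.3% of the crotonate list by number, but 10.4% and 15.9% of the covered length. The largest addition was in the class of 2 to 5 kb, from 4.54 to 6.86 Mb. Domains of 20 kb or more covered 3.70 Mb after water and 5.44 Mb after crotonate. There were 5 domains of 50 kb or more after water and 10 after crotonate, while the number of 100 kb or more, which are the 4 Hox clusters, was 4 in both. Per chromosome, the covered length after crotonate was between 1.45 times (chromosomes 3 and 12) and 1.90 times (chromosome 16) that after water, over all 20 chromosomes.

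**Figure D1:**
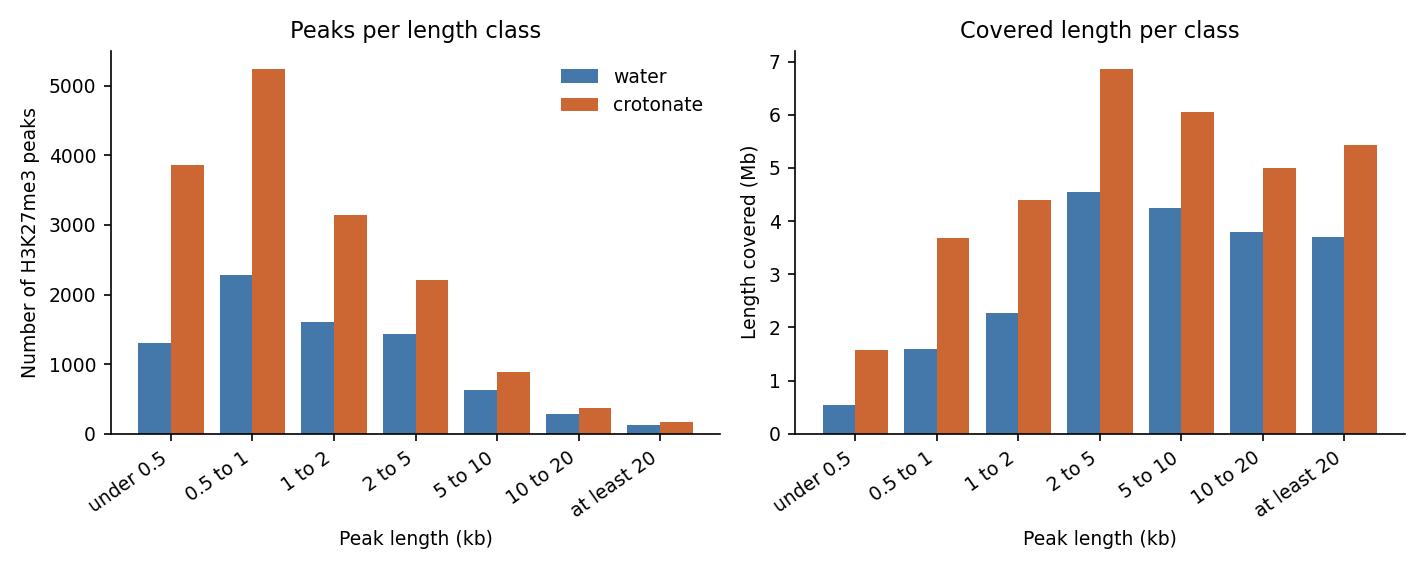
Number of H3K27me3 peaks (left, y axis) and length they cover in Mb (right, y axis) by peak length class in kb (x axis), after water (blue) and crotonate (orange), 1 library each. The bars of crotonate are higher in all 7 classes, and the ratio of peak numbers goes from 2.95 under 0.5 kb to 1.45 at 20 kb or more.

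Long domains were the strong ones within each list. Pileup at the summit, the authors' scaled count of fragments there, had a median of 6.02 under 0.5 kb and 139.9 at 20 kb or more in the water list, and 7.63 and 155.1 in the crotonate list. Across the peaks of a list the rank correlation of length with pileup was 0.812 after water (n = 7643) and 0.763 after crotonate (n = 15879), over peaks that share a library. Pileup was scaled separately in each library and is not compared between them. Gene starts followed length as well. In the water list 2.06% of peaks under 0.5 kb, 32.7% at 2 to 5 kb and 84.0% at 20 kb or more held an annotated start of a protein-coding gene. In the crotonate list these shares were 1.37%, 20.4% and 80.2%. Thus most short peaks of either list lay away from gene starts and most of the longest did not.

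The longest domains stood over regulators of body plan and organ formation. Hoxc, whose genes set axial identity, lay under 1 domain of 170 kb after water, at chr15:102901895-103072344, and of 172 kb after crotonate, at chr15:102901594-103073284. Hoxa measured 132 and 140 kb, Hoxd 117 and 126 kb, and Hoxb 111 and 115 kb. Behind them after water came Hand2 and Gata4, transcription factors of heart and mesoderm, at 50.5 and 48.3 kb, which measured 52.4 and 48.6 kb with crotonate. Dlx5 and Dlx6, homeobox genes of ventral forebrain neurons and of the jaw, shared a domain of 45.8 and 46.3 kb. Tfap2a, of neural crest and epidermis, measured 45.3 and 48.7 kb, and Tcf21, of mesenchyme, 44.1 and 44.6 kb. All the domains named so far differed by less than 10 kb between the lists. Beside the Hox clusters, 5 of the other 6 among the 10 longest after crotonate (Otp, Nr2f2, Pax2, Skap2 and Nkx2-3) were not among the 10 longest after water.

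MicroRNA genes inside these domains are shown with their mature sequences, because the Hox clusters carry 2 miRNA families that each have 1 seed (bases 2 to 8, in capitals; RefSeq, GRCm38.p6, written 5′ to 3′ with U). miR-10b lies in the Hoxd domain and miR-10a in the Hoxb domain. miR-196b lies in the Hoxa domain, and miR-196a comes from hairpins in the Hoxb and Hoxc domains.
mmu-miR-10a-5p: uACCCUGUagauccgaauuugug
mmu-miR-10b-5p: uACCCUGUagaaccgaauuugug
mmu-miR-196a-5p: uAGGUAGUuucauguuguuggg
mmu-miR-196b-5p: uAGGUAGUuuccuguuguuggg
mmu-let-7k: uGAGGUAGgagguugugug
mmu-let-7f-5p: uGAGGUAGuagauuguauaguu
mmu-miR-449a-5p: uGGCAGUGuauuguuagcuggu
mmu-miR-449c-5p: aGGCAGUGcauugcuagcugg
The hairpins of the miR-10 and miR-196 families lay wholly inside a peak in both lists. Of 1005 hairpins in the RefSeq table, 24 (2.39%) lay wholly inside a peak after water and 27 (2.69%) after crotonate, 21 of them in both. The hairpin of let-7k, at chr5:147283189-147283298, lay inside the 23.5 kb domain of Pdx1, a pancreas regulator, after crotonate, while the nearest water peak, of 0.405 kb, ended 139 bp away. Mirlet7f-2, 1 of the hairpins of let-7f, which has the same seed as let-7k, lay inside a 0.527 kb peak after water and 899 bp from the nearest peak after crotonate. Mir449a and Mir449c, of a family known from multiciliated cells, lie together in Cdc20b. A peak covered 84.4% of Mir449c after water and all of it after crotonate (5.16 and 5.46 kb), and Mir449a was reached after crotonate only, by a separate peak of 0.547 kb. Mir6973b, Mir7233 and Mir193a were the others wholly inside a peak after crotonate only, and Mir1199 and Mir1900 were the others after water only. A water peak covered 92.5% of Mir6973b, and the nearest crotonate peaks lay 62 bp from Mir1199 and 33 bp from Mir1900. A peak over a hairpin says nothing here of the miRNA's level.

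The second comparison asked how peaks of the lists matched, by grouping all peaks linked by an overlap of at least 1 bp. Fusion of water peaks was more frequent than splitting. In 1005 groups at least 2 water peaks lay under 1 crotonate peak, and these took in 2366 water peaks (31.0% of that list and 35.7% of its covered length). In 252 groups 1 water peak was matched by at least 2 crotonate peaks, 525 in all. Another 3987 peaks paired 1 to 1, 153 groups were mixed with several peaks on both sides, and 634 water and 10042 crotonate peaks had no partner. Of the fusions, 747 joined 2 water peaks, 194 joined 3, 43 joined 4, and 21 joined 5 to 8. Of the splits, 231 gave 2 pieces and 21 gave 3.

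Fused and split domains differed in size. A fused domain had a median length of 6135 bp after crotonate, against 2848 bp for the longest water peak inside it. Its median widest closed gap was 654 bp (quartiles 466 and 986 bp, longest 4152 bp). The summit of the fused domain lay inside a water peak in 905 of 1005 cases (88.0 to 91.8%) and inside the longest of them in 74.3%. A split domain had a median length of 3812.5 bp after water and a median widest gap of 477.5 bp. The pieces of a split together covered more than the single water peak in 104 of 252 cases (41.3%), and their median total was 3.55 kb against 3.81 kb. In fusions the crotonate peak covered more than its water peaks together in 974 of 1005 cases (96.9%).

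Gaps were counted in the same way in both directions, but not on equal terms. A gap beside a peak without a partner cannot lie wholly inside a peak of the other list. Such peaks were 8.30% of the water list and 63.2% of the crotonate list, so a lower share for crotonate gaps follows in part from this. Of 803 gaps under 0.5 kb between neighbouring water peaks, 595 (74.1%, 70.9 to 77.1%) lay wholly inside a crotonate peak. The share was 48.4% of 1448 gaps of 0.5 to 1 kb, 24.3% of 1038 gaps of 1 to 2 kb, 7.84% of 816 gaps of 2 to 5 kb, and 0 of 383 gaps of 5 to 10 kb (upper bound 0.959%). In the other direction, 14.2% of 1827 gaps under 0.5 kb between crotonate peaks lay inside a water peak (12.6 to 15.9%), 5.41% of 3013 gaps of 0.5 to 1 kb, 0.746% of 2413 gaps of 1 to 2 kb and 0 of 2183 gaps of 2 to 5 kb. Below 1 kb the shares were 57.6% and 8.72%. They were 56.3% and 13.3% with lists of equal length. Both lists have no gap shorter than their shortest peak (342 bp after water, 332 bp after crotonate), below which the caller joined peaks.

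**Figure D2:**
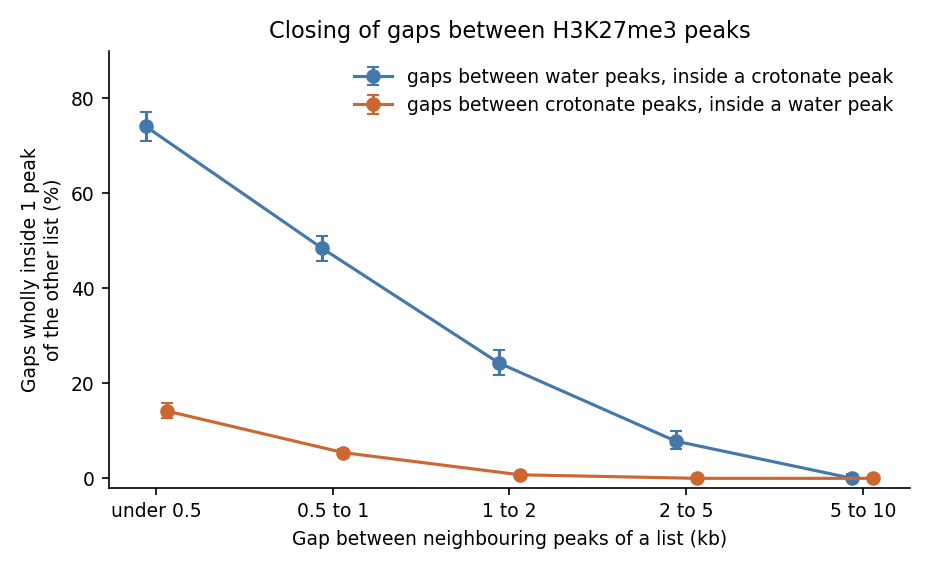
Share of gaps between neighbouring peaks of a list that lie wholly inside 1 peak of the other list (y axis, %) by gap length in kb (x axis), for gaps between water peaks (blue) and between crotonate peaks (orange). Bars are exact 95% binomial intervals for counting error only, and the blue points lie above the orange ones up to 5 kb, from 74.1 against 14.2% to 7.84 against 0%.

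Named fusions were those with the longest domain after crotonate, 10 in number, and 9 of them held a gene of a developmental transcription factor. Most of the longest domains of both lists stood over such genes, fused or not, so this count does not set fusions apart. At Otp, a homeobox gene of hypothalamic neurons, 6 water peaks of 0.957, 35.4, 5.67, 3.46, 6.32 and 0.881 kb lay under 1 crotonate domain of 56.5 kb, at chr13:94860094-94916591, and the widest gap closed was 816 bp. At Pax2, a paired-box gene of midbrain, eye and kidney, 4 water peaks of 0.452, 12.1, 34.8 and 0.635 kb became 51.4 kb at chr19:44716827-44768205. At Nr2f2, which encodes the nuclear receptor COUP-TFII, peaks of 32.0 and 20.2 kb, 776 bp apart, became 52.9 kb. Otp and Pax2 show a long core present in both lists with shorter flanking peaks taken in, whereas at Nr2f2 both water peaks were long. Nkx2-3, a homeobox gene of gut and spleen, had 1.27, 11.7 and 33.8 kb after water and 50.0 kb after crotonate. Pax3 (neural crest and muscle) had 3 peaks and then 46.7 kb, Vax2 (ventral eye) had 4 and then 42.8 kb, and Hoxb13 had 2 and then 45.2 kb. The Hoxa domain took in a flanking peak of 5.24 kb and the Hoxb domain one of 0.421 kb. Skap2, an adaptor protein gene beside Hoxa and the only one of the 10 without such a factor, had 5 water peaks of 3.26 to 23.8 kb and 1 crotonate domain of 50.4 kb. In these 10 fusions, chosen for length, the water peaks already covered 89.9 to 98.5% of the crotonate domain. Over all 1005 fusions the median was 71.6%, and in 49.8% of them the longest water peak made up less than 50% of the crotonate domain.

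Among the 10 splits with the longest water domain, the longest piece after crotonate measured from 12.993 kb (Zfhx4) to 25.2 kb (Shox2). Tbr1, a T-box gene of deep-layer cortical neurons, had 1 water domain of 26.4 kb, and after crotonate 21.2 and 4.42 kb with 582 bp between them. Neurog2, a proneural gene that drives cortical neurogenesis, lay under 1 water domain at chr3:127623196-127647461. After crotonate a separate 2.51 kb peak and a 23.9 kb domain stood there, 615 bp apart, and the gene itself was wholly inside the longer one. Together they ran from 127622167 to 127649227 and so reached past both ends of the water domain. Shox2, of limb and heart, went from 26.1 kb to 25.2 and 0.420 kb, Isl1, of motor neurons and heart, from 25.7 kb to 23.9 and 1.51 kb, and Barx1, of stomach and teeth, from 22.4 kb to 21.0 and 0.482 kb. Gbx2, of the midbrain and hindbrain boundary, went from 20.9 kb to 14.9 and 5.02 kb, and the domain of Ddn and Wnt1 from 21.3 kb to 20.3 and 0.591 kb. The water domain of Zfhx4, of 23247 bp, was cut into 12.993 kb, 5.44 kb and 4.14 kb, and that of 4930447C04Rik into 21.4, 4.87 and 1.99 kb. Iqch went from 20.0 kb to 18.0 and 1.69 kb. Over these 10 the pieces covered 94.0 to 98.3% of the water domain, and no gap exceeded 1102 bp. Over all 252 splits the pieces covered a median of 80.5%, and the widest gap was 1413 bp.

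**Figure D3:**
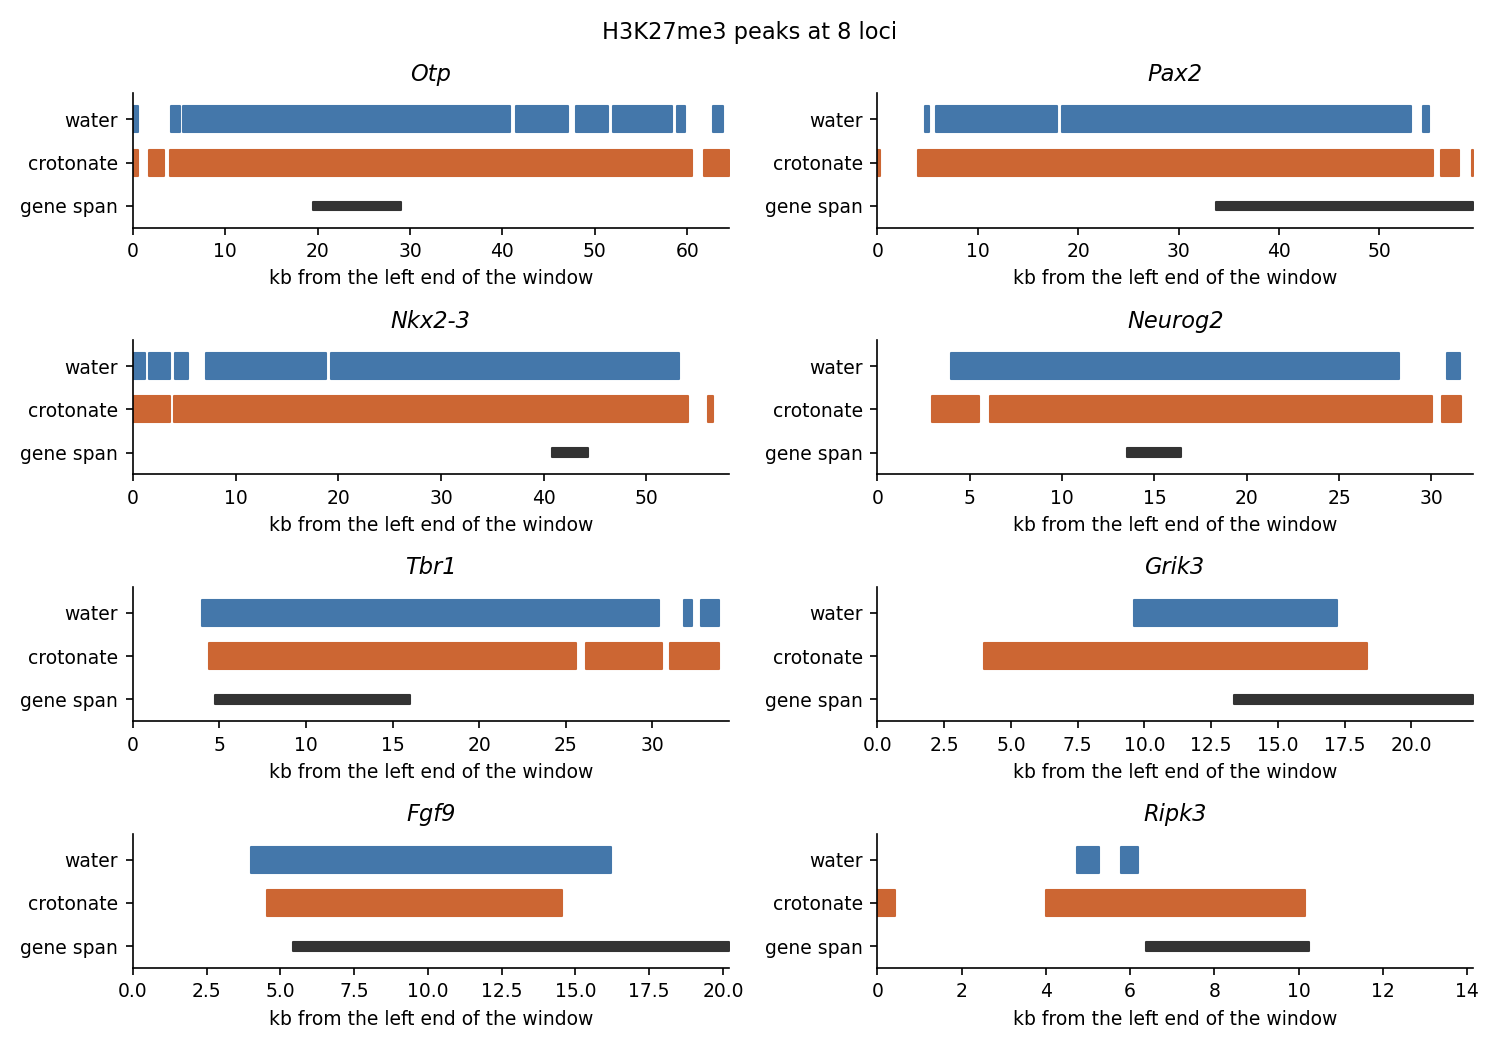
Peaks of the water list (blue) and the crotonate list (orange) as bars to scale at 8 loci, with the annotated gene span (black); the x axis is kb from the left end of each window, and peaks and spans are clipped at its ends. Otp, Pax2 and Nkx2-3 show several water peaks under 1 crotonate domain, Neurog2 and Tbr1 show 1 water domain over 2 crotonate peaks, Grik3 and Fgf9 show shifted edges, and Ripk3 is reached by a crotonate peak only.

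Among water peaks, a fusion was most frequent at 10 kb or more. Of water peaks of 20 kb or more, 47.9% were in a fusion and 33.6% in a 1 to 1 pair, against 27.5% and 45.5% of those under 0.5 kb. The share in a fusion was 43.7% at 10 to 20 kb and between 27.5 and 32.2% in every class under 10 kb. Of crotonate peaks of 20 kb or more, 56.4% were fused domains. A fused domain spans several water peaks, so its length and its being fused are not independent. Longer peaks also have more room for several partners. Of the 537 crotonate domains of 10 kb or more, 369 (68.7%, 64.6 to 72.6%) overlapped a water peak of at least 10 kb and 168 (31.3%) only shorter ones. Those 168 were 116 fusions, 38 pairs, 13 mixed groups and 1 piece of a split, and none lacked a water partner. Of the 398 water domains of 10 kb or more, 378 (interval 92.3 to 96.9%) overlapped a crotonate domain of at least 10 kb, and 20 did not, of which 14 were split. The numbers 168 and 20 were the same with lists of equal length. That setting kept the whole water list and all 537 long crotonate domains, so it could hardly change them and is no separate check.

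Base by base, 19.3 Mb lay under peaks of both lists, which is 93.6% of the water length and 58.6% of the crotonate length. The 13.7 Mb covered after crotonate only were 57.3% peaks without a partner (7.82 Mb), 33.6% stretches beyond the outer edges of the water peaks (4.59 Mb) and 9.08% gaps between water peaks (1.24 Mb). The 1.33 Mb covered after water only were 28.2% peaks without a partner, 54.3% beyond the outer edges of the crotonate peaks and 17.6% gaps between them. Most of the added length was thus new short peaks and outward edges, and closed gaps were the smallest share.

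The third comparison asked where domain edges lay, in the 3987 pairs that matched 1 to 1. After crotonate 3133 of them (78.6%, 77.3 to 79.8%) were longer, and the median length was 1142 bp in water and 1900 bp in crotonate. The median edge lay 189 bp further out after crotonate (quartiles −21 and 569 bp), with 192 bp at left and 186 bp at right edges. Of all edges 70.8% lay further out, 22.8% were within 100 bp of each other, 12.8% were more than 1 kb further out and 0.702% more than 1 kb further in. Both edges lay further out in 50.6% of pairs (2019), both lay further in in 8.18% (326), and in 38.4% (1531) the whole pair was shifted to 1 side, with an edge out and the other in. The rank correlation between left and right shifts was 0.0701 over the 3987 pairs, which share the 2 libraries. The shift of an edge thus carried little information on the opposite edge of the same domain.

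Which length is used to class the pairs changed the reading for short peaks. Classed by water length, 94.0% of pairs under 0.5 kb were longer after crotonate, and classed by crotonate length 22.4% were, while classed by the mean of both it was 60.0%. Classing by a list selects peaks that are short in that list, so the shares of short classes describe the choice as well as the peaks. For pairs of 20 kb or more the 3 ways gave 92.5%, 93.5% and 92.9%, and for 10 to 20 kb they gave 87.6%, 92.5% and 89.7%, so the greater length after crotonate of long domains did not depend on it. The median distance between the summits of a pair was 203 bp, and 78.0% lay within 500 bp. In short pairs the length of the overlapping peaks limits this distance, so these values alone do not show that summits stayed in place. Within 500 bp lay 84.9% of pairs under 0.5 kb in water and 71.0% of those at 5 to 10 kb. In the 40 pairs of 20 kb or more in water the median was 9 bp, and 75% lay within 500 bp. The rank correlation of pileup between the lists was 0.830 over 3987 pairs and 0.959 over the 469 of 5 kb or more in water, over sites that share the 2 libraries.

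**Figure D4:**
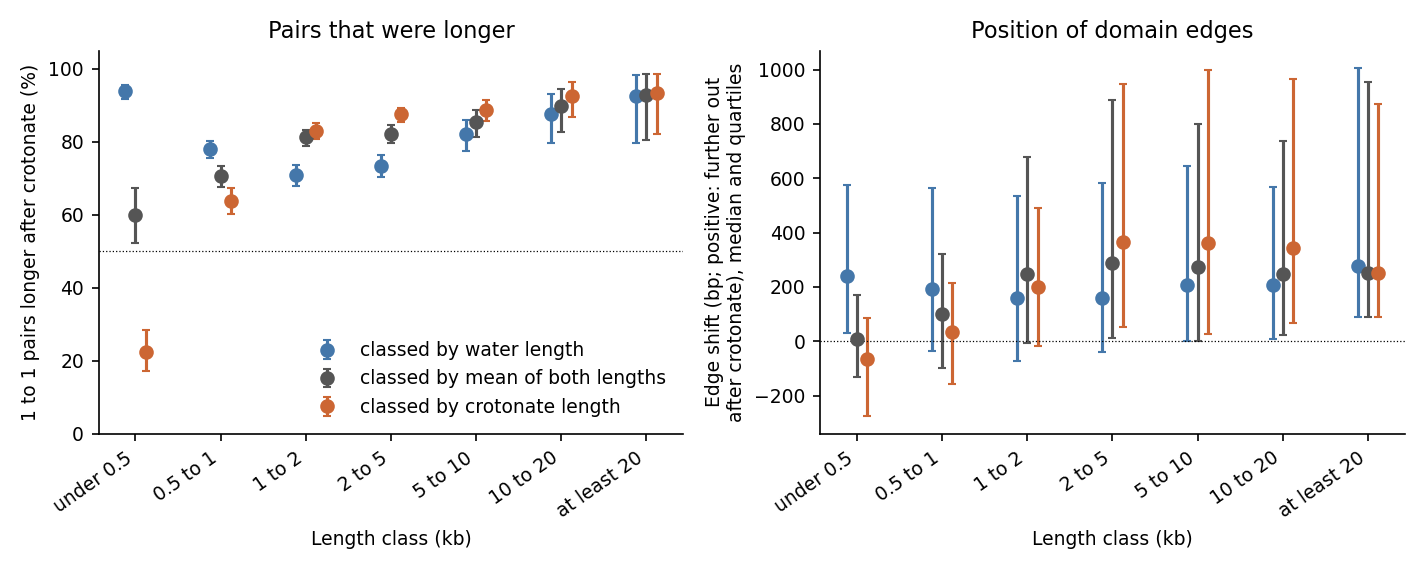
Left, share of 1 to 1 pairs longer after crotonate (y axis, %, exact 95% binomial intervals); right, shift of domain edges in bp (y axis, positive is further out after crotonate; median with quartiles); x axis, length class in kb, with classes by water length (blue), mean length (grey) or crotonate length (orange). The 3 colours part at short peaks (94.0, 60.0 and 22.4% under 0.5 kb) and come together at 20 kb or more (92.5, 92.9 and 93.5%).

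Among pairs of at least 5 kb in water, the 10 that lengthened most and the 10 that shortened most were named. Grik3, a kainate-type glutamate receptor subunit gene, had the largest gain, from 7.62 to 14.3 kb, with the left edge at 125486492 after water and at 125480886 after crotonate on chromosome 4. The domain at Runx3, a factor of lymphocytes and sensory neurons, went from 22.5 to 27.9 kb and that of Ngfr, the low-affinity neurotrophin receptor gene, from 11.9 to 16.5 kb. The domain shared by Slc6a7 and Cdx1, the latter a caudal homeobox gene, went from 7.26 to 12.3 kb and that of Ppp2r2c, a phosphatase subunit gene, from 7.50 to 12.4 kb. Others were Wnt9b, a Wnt ligand gene (7.63 to 11.5 kb), Cdh3, a cadherin gene of epithelia (7.56 to 11.4 kb), Ap1b1 with the neurofilament gene Nefh (11.6 to 15.5 kb), Kndc1 with Utf1 (6997 to 11030 bp) and Mpzl2 (5.44 to 9.33 kb). The largest gain was 6701 bp.

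The shortened domains changed by less. Fgf9, a fibroblast growth factor gene, went from 12.2 to 9.99 kb, the largest loss. Wee2 with Dennd11 went from 5.95 to 4.55 kb, Pyy, a gut peptide gene, from 7.06 to 5.76 kb, and Nptx1, a neuronal pentraxin gene, from 6.33 to 5.14 kb. Gad1, the GABA-synthesizing enzyme gene of inhibitory neurons, went from 11.4 to 10.3 kb. Cckar, a cholecystokinin receptor gene, went from 10.4 to 9.23 kb, Cldn7, a tight junction gene, with Elp5 from 9.88 to 8.83 kb, and Gsc2, a homeobox gene, from 8.13 to 7.18 kb. The other 2 lay on no protein-coding gene, at chr6:53145062-53150429 and chr4:150026649-150035591 after water. The domain at Wee2 fell by 1401 bp and that at Fgf9 fell by 2208 bp, whereas all 10 named gains were of at least 3815 bp.

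Peaks without a partner were short in both lists, at medians of 502.5 bp (634 water peaks) and 600 bp (10042 crotonate peaks). Of the water ones, 76.0% lay within 5 kb of a crotonate peak and none was 5 kb or longer. Of the crotonate ones, 40.3% lay within 5 kb of a water peak, 374 were 2 kb or longer and 10 were 5 kb or longer. An annotated gene start lay in 5.84% and 2.29% of them. The longest after crotonate lay in Thsd4 (6.62 kb), at Th, the tyrosine hydroxylase gene of catecholamine neurons (6.44 kb), at Rspo1, a Wnt pathway agonist gene (6.41 kb), in Tenm4, a teneurin gene (6.08 kb), and at Flt4, the VEGF receptor gene of lymphatic endothelium (5.89 kb). Crocc2 (5.73 kb), Hmcn2 (5.45 kb) and 3 places without a protein-coding gene completed the 10. Among these, Flt4 had the highest summit in its own list, with a pileup of 30.5, above 91.7% of crotonate peaks.

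The longest after water lay at Tesc, a calcium-binding protein gene (3.30 kb), Prob1 (2.52 kb), Trim47, of the tripartite-motif family (2.27 kb), Ndnf, a secreted neuronal protein gene (2.24 kb), and Mycn, a proto-oncogene of progenitor growth (2.05 kb). Oaf (1.90 kb), Fgfr3, a fibroblast growth factor receptor gene (1.84 kb), Pak1, a kinase gene (1.61 kb), and 1 place without a protein-coding gene (2.37 kb) followed. Their pileups lay above 31.8 to 81.0% of the water peaks. The lists do not tell an unmarked place from 1 that missed the caller's threshold narrowly.

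The fourth comparison asked which genes the domains covered, as the share of the annotated span of each of 21887 protein-coding genes under peaks of a list. At least 50% of the span was covered for 475 genes after water (2.17%) and 624 after crotonate (2.85%), 463 of them in both. At least 90% was covered for 293 (1.34%) and 360 (1.64%), the whole span for 256 (1.17%) and 296 (1.35%), and any part for 2223 (10.2%) and 2969 (13.6%). The covered share was at least 50 points higher after crotonate for 47 genes (0.215%) and lower for 1 (0.00457%). At 25 points the counts were 190 (0.868%) and 8 (0.0366%), and at 10 points 610 (2.79%) and 31 (0.142%). Genes with a gain of 50 points were short, with a median length of 2312 bp against 17169 bp for all genes. This follows in part from the measure, because 1 peak can cover most of a short span but little of a long one. Of these 47 genes, 27 were covered mainly by a crotonate peak without a water partner, 10 by a fused and 10 by a 1 to 1 peak. Of the 190 genes with 25 points more, 67 were of the first kind, 52 fused, 67 of a 1 to 1 pair, 3 mixed and 1 split. A start lay inside a peak for 1411 genes after water (6.45%) and 1686 after crotonate (7.7%), 1317 of them in both, 369 after crotonate only and 94 after water only.

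The 10 genes of at least 2 kb with the largest gain are given first. Rnf224, a RING finger gene at chr2:25234476-25236787, was covered over 0% of its span after water and 100% after crotonate, by a peak of 5.62 kb. This peak paired 1 to 1 with a water peak that lay outside the gene. Ripk3, the kinase gene of necroptosis at chr14:55784995-55788857, went from 0 to 97.5%, under a crotonate peak of 6.15 kb. That peak took in water peaks of 521 and 411 bp, which ended short of the gene at 55784802. Tnf, the cytokine gene, went from 21.9 to 85.5%, with 0.578 kb as the longest peak after water and 4.71 kb after crotonate. Ubd, an interferon-inducible ubiquitin-like gene, went from 0 to 64.0% and Epo, the erythropoietin gene, from 26.6 to 89.2%. The crotonate peak at Ubd, of 6.90 kb, also paired 1 to 1 with a water peak outside the gene. Krt18, a keratin gene of simple epithelia, went from 0 to 64.5% by 3 short peaks, the longest 1.30 kb, and to 18.1% with lists of equal length. Gfra4, a GDNF-family receptor gene, went from 27.7 to 97.3%, Pdzk1ip1 from 18.2 to 91.0% and 1600014C23Rik from 17.3 to 83.7%. Magee1, at 21.5 and 100%, rested on a weak crotonate peak (−log10 q of 1.73 in the authors' list) and was at 0% after crotonate with lists of equal length, with −log10 q of at least 5 and with matched background, where crotonate peaks were kept only if they passed the water list's weakest p after scaling to its background depth.

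Of the 10 genes of at least 2 kb with the largest loss, 5 had no peak left after crotonate. Prob1 went from 51.6 to 0%, Trim47 from 46.5 to 0%, Mycn from 35.7 to 0% and Zfp296, a zinc finger gene, from 27.7 to 0%. Inhbb, the activin beta-B subunit gene, went from 21.2 to 0%. The water peaks there were of 1.05 to 2.52 kb and none had a crotonate partner. Cdkn1c, an imprinted cell cycle inhibitor gene, went from 99.3 to 75.1% although its peak was 3.31 kb long after water and 3.98 kb after crotonate, and the crotonate peak lay at lower coordinates. B4galnt1, a ganglioside synthase gene, went from 81.6 to 56.7% and Zbtb42 from 80.8 to 56.7%, both where a water peak was split. Magee2 (70.3 to 40.7%) and Csrp3, a muscle LIM protein gene (50.5 to 31.3%), completed the 10. Magee2 was at 0% after crotonate with lists of equal length and with matched background, and at 0% in both lists with −log10 q of at least 5.

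Gene lists are given by counts beside the same over all genes, whose median covered share was 0% in both lists. Of all genes, 2.17% were covered by at least 50% after water and 2.85% after crotonate, 2.79% had 10 points more after crotonate and 0.142% had 10 points less. All 39 Hox genes were covered over their whole span in both lists, so the share could not be higher after crotonate. Of 72 other homeobox genes of patterning, 53 were covered by at least 50% after water and 58 after crotonate, 11 had 10 points more and none had 10 points less. Pax2 went from 39.1 to 72.4% of a 91.7 kb span, Six2, of kidney and face, from 54.5 to 77.8%, and Emx1, of dorsal forebrain, from 45.2 to 60.5%. The median of the list was 100% in both lists.

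T-box and GATA genes, which direct mesoderm, heart and limb, had 10 points more in 8 of 20, beside 2.79% of all genes, and 10 points less in none, and their median share was 46.8% after water and 61.4% after crotonate. Gata5, of heart and gut endoderm, went from 56.7 to 97.3%, where 2 water peaks, the longer of 10.1 kb, lay under 1 crotonate peak of 16.3 kb. T, the Brachyury gene of mesoderm, went from 29.8 to 55.6%, Eomes, of endoderm and cortical intermediate progenitors, from 77.0 to 94.97% and Tbx18, of heart and ureter, from 47.2 to 65.0%. Forkhead genes had 17 of 28 covered by at least 50% in both lists and 1 with 10 points more, Foxn4, of retina and spinal interneurons (23.3 to 39.0%). Proneural and neuronal bHLH genes had 17 of 27 in both, and 1 with 10 points more, Nhlh1 (9.63 to 22.5%). Sox genes had 4 of 16 in both, with Sox7 going from 57.6 to 72.6% and Sox10 from 0 to 13.6%. Sox10 was at 0% in both lists with equal lengths, with matched background and with −log10 q of at least 5, and Foxn4 was at 31.3% after crotonate with the last of these.

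Of 19 Wnt ligand genes, 4 were covered by at least 50% after water and 6 after crotonate, 4 had 10 points more and 1 had 10 points less. Wnt3a went from 26.2 to 55.1%, Wnt4 from 13.1 to 34.3%, Wnt6 from 46.6 to 62.7% and Wnt9b from 26.2 to 38.8%, while Wnt16 went from 42.6 to 23.8%. Of 27 genes of BMPs, activins and their antagonists, Inhba, the activin beta-A subunit gene, had more (13.9 to 25.2%), and Inhbb and Nog had less. Nog encodes noggin, a BMP antagonist, and went from 100 to 73.2% as its peak went from 3.72 to 3.00 kb. Of 22 FGF ligand genes, Fgf16 alone had 10 points more, from 7.32 to 17.9%, and it was at 9.06% after crotonate with lists of equal length, with matched background and with −log10 q of at least 5. Of 42 potassium channel genes, 21 had any part under a peak after water and 26 after crotonate (10.2 and 13.6% of all genes), and 14 and 16 had their start inside one (6.45 and 7.7% of all genes). At least 50% of the span was covered in 1 and then 2 of them, a share near the 2.17 and 2.85% of all genes, with Kcna1 going from 38.4 to 51.9% and Kcns1 from 67.6 to 79.5%. Of 47 axon guidance genes, 15 and 17 had any part under a peak and 10 and 11 had their start inside one, and none and then 1 was covered by at least 50%, Epha8, an ephrin receptor gene (24.8 to 64.5%). Of 30 Polycomb subunit genes, 4 had any part under a peak after water and 4 after crotonate, beside 10.2 and 13.6% of all genes. In both lists 1 of the 30 was covered by at least 50%, and none changed by 10 points.

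**Figure D5:**
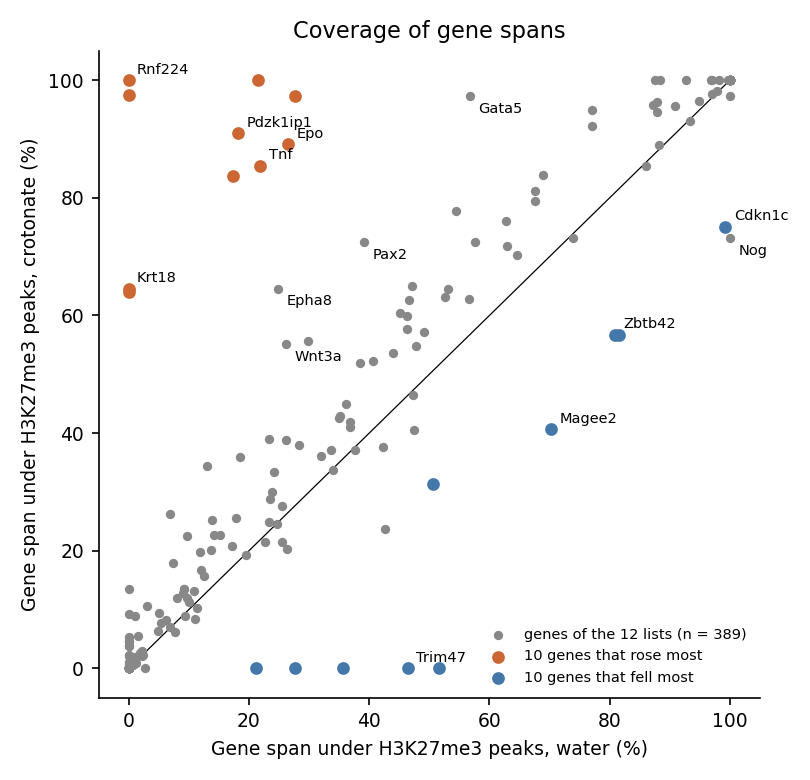
Share of each gene's span under H3K27me3 peaks after crotonate (y axis, %) against water (x axis, %), 1 point per gene, for the 389 genes of 12 lists (grey), the 10 genes of at least 2 kb with the largest gain (orange) and the 10 with the largest loss (blue); the line marks equal shares. Most grey points lie on or above the line, with Gata5 at 56.7 and 97.3% and Epha8 at 24.8 and 64.5%, and Nog lies below it at 100 and 73.2%.

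Limits of these comparisons were read from the lists, since these hold no fragment totals. The estimated background used in peak calling was 1.80 times as deep after crotonate and the H3K27me3 library 0.811 times as deep, so peak number, peak width and the closing of gaps can move with depth, and treatment and depth cannot be told apart with 1 library each.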

How the data were processed

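The deposited peak lists of 2 CUT&Tag libraries were used. Each gives peak positions on GRCm38, counted from 1, with pileup at the summit as a scaled signal, fold enrichment as a linear ratio and −log10 of p and q, per the file headers. The submitters' processing notes name MACS2 2.2.7.1, Bowtie2 2.4.1, Picard 2.22.0 and SAMtools 1.10. Settings, duplicate handling and the background library were not given in the sources used here. No fragment total is given. Relative depth was estimated from the step of the pileup values and the lowest local background per bp, taking the shortest peak as the fragment length and each pileup as scaled to the background. The authors' pileup, fold and −log10 q values served for description, ranking and filtering inside a list.

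Peaks were grouped by overlaps of at least 1 bp, and edges were compared in 1 to 1 groups. Gene spans came from the RefSeq table of GRCm38.p6 (21887 protein-coding genes). Starts came from the promoter table for 17492 genes, and for the other 4395 either end was used. The named items were the 10 longest domains per list, the 10 longest fusions, splits and unpaired peaks, the 10 pairs of at least 5 kb that lengthened or shortened most, the 10 genes of at least 2 kb with the largest gain or loss of coverage, up to 4 genes per list and direction with 10 points of change, and Sox2, Nes, Pax6, Neurog2, Gfap and the Hox clusters. A few of these are not reported here. The members and all 19 gene lists (427 genes, all matched) were chosen with earlier results of these data known. Code (Python 3.11.15, scipy 1.17.1, pandas 2.3.3, numpy 2.4.6, matplotlib 3.10.9) was tested on simulated peak lists. Alternatives were lists of equal length, a stricter q, joined peaks, peaks under 500 bp left out, matched background, a reciprocal overlap and other length or coverage limits. With 1 library per treatment, no test between treatments was made.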

Additional observations from a re-analysis of the deposited data

How the results depend on the processing

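Neither the share of longer pairs nor the median edge shift reversed, and 53 of 90 alternative values stayed within the spread or factor set for them. Counts were only sorted as within or beyond that factor, so a reversal was not defined for them. Settings with a stricter q, equal lists, matched background or no peaks under 500 bp left out whole peaks and called no edge anew. They therefore cannot test peak length or edges against depth. Some counts could hardly change, as crotonate domains of at least 10 kb stayed at 537 in all these settings. Equal lists and matched background also kept the whole water list. Among named genes the covered share of Magee1 did reverse, from 21.5 and 100% after water and crotonate to 21.5 and 0% with equal lists, with matched background and at −log10 q of 5, where its weak crotonate peak is left out. Genes with at least 50 points more of their span covered were 47, and 190 at 25 points, 26 among genes of at least 2 kb and 106 with peaks less than 3 kb apart joined. Genes with at least 50 points less were 1, and 8 at 25 points, 3 with matched background, 4 with lists of equal length, 3 with −log10 q of at least 5, and 2 with peaks joined across 1 kb or 3 kb. The crotonate list had 537 domains of at least 10 kb, 172 of at least 20 kb and 1424 of at least 5 kb, and 817 and 1136 after joining across 1 and 3 kb. The water list had 398, 119 and 1022, and 684 after joining across 3 kb. The share of 1 to 1 pairs longer after crotonate was 78.6%, and 80.6% with equal lists, 81.5% at −log10 q of 5, 83.4% and 87.1% with peaks joined across 1 and 3 kb, and 74.7% with a reciprocal overlap of 50%. The median edge shift was 189 bp, and 203.5 bp with matched background, 219 bp with equal lists, 251.5 bp at −log10 q of 5, 382 and 665.5 bp with peaks joined, 212 bp without peaks under 500 bp and 146.5 bp with the reciprocal overlap. Fused water peaks numbered 2366, and 771 at −log10 q of 5, 1536 and 794 with peaks joined, and 0 with the reciprocal overlap, which allows no peak more than 1 partner. Split water peaks numbered 252, and 151 with equal lists, 140 at −log10 q of 5, 73 and 16 with peaks joined, and 0 with the reciprocal overlap. Stricter and joined lists hold fewer peaks by construction, and any other cause was not tested. With peaks joined, crotonate domains of at least 10 kb without such a water partner were 304 across 1 kb and 497 across 3 kb, against 14 and 11 the other way. Pairs classed by crotonate or mean length, and starts from the promoter table alone, were added after the data were seen. No paired analysis was possible because there is 1 library per treatment.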

Other observations

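The interferon alpha genes, cytokine genes of antiviral defence in a cluster on chromosome 4, were looked at after their values had been seen. Of 13 such genes, 1 had a peak in its span after water and 6 after crotonate. Ifna5 was covered over 80.7% after water and 89.3% after crotonate. Ifna1, Ifna7, Ifna4, Ifna6 and Ifna11 were at 0% after water and at 100%, 93.2%, 85.6%, 67.4% and 57.8% after crotonate. Ifna1 lay under a peak of 849 bp with a −log10 q of 17.2 and Ifna7 under one of 2816 bp with 10.8, whereas the peaks at Ifna6 and Ifna11 had 2.30 and 1.48 in the authors' list. The other 7 genes, Ifna2, Ifna9, Ifna12, Ifna13, Ifna14, Ifna15 and Ifna16, had no peak in either list. The genes are close copies of each other and how reads that fit several were counted is not given in the sources used here, so the split among members is uncertain. The share of these genes with 10 points more, 38.5% of 13, stood beside 2.79% of all genes, 10.2% of 49 keratin genes, 13.0% of 23 claudin genes and 0.452% of 1106 olfactory receptor genes. Interferon alpha genes are short (570 bp at Ifna1), so 1 short peak can raise their covered share by far more than that of a long gene.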
